A study of Mus musculus with 4 samples.

Results

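Th, Tafa4, P2ry1, Zfp521 and Rarres1, genes of the C-fibre low-threshold touch neurons, were measured by bulk RNA sequencing in dorsal root ganglia of mice, the ganglia that hold the cell bodies of sensory neurons. They were taken by name. The 6 names listed hold 5 genes, since Tafa4 and Fam19a4 are names of 1 gene, and all 5 were found among the 14405 genes of the FPKM matrix, Tafa4 under the name Fam19a4. FPKM scales the sequenced fragments of a gene by its transcript length and by library size, so levels of different genes can be set side by side. The ganglia came from mice of a mixed strain at 10 weeks of age. The 2 control samples were labelled wild type, and the 2 mutant samples Prdm12-/Fl; AvilCreERT2/+, that is, 1 null and 1 floxed allele of Prdm12 with 1 copy of a Cre recombinase that tamoxifen activates, driven by the sensory neuron gene Avil. The sources used here do not give whether the controls carried the Cre, which animals received tamoxifen and when, or whether ganglia of several mice were pooled. Paired values of a group are those of its samples 1 and 2, in that order.

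C-fibre low-threshold mechanoreceptors (C-LTMRs) are unmyelinated sensory neurons of the ganglion that respond to light, slow touch of hairy skin, where their endings surround hair follicles. They make tyrosine hydroxylase (Th), the enzyme of the first and rate-limiting step of catecholamine synthesis, and release the secreted protein TAFA4, which is known to dampen pain signalling in the spinal cord. P2ry1 encodes P2Y1, a Gq-coupled receptor for ADP. Zfp521 encodes a zinc finger transcription factor with many fingers, and Rarres1 a membrane protein named for its induction by retinoic acid and related to the carboxypeptidase inhibitor latexin. The comparison asks how these genes differed between ganglia of mutant and wild type mice.

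Prdm12, the gene deleted in the mutants, was at 7.58 and 10.7 FPKM in the wild types against 1.05 and 1.50 FPKM in the mutants (limma adjusted p = 0.180), lower in both mutants. The 14 pan-neuronal genes listed as a check of the tissue all had values. Their summed level ran from 3809 FPKM in wild type 1 to 6117 FPKM in mutant 2, and neuronal RNA was thus measured in every sample. FPKM keeps no read counts, and the depth of the libraries is unknown.

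The 250 bases before the RefSeq start sites of Th, Tafa4 and Rarres1 (build GRCm38.p6) are printed here because these are the 3 members that were higher in sample 2 than in sample 1 of both groups. Each runs 5′ to 3′ on the gene's own strand, in lower case, with matches to any motif searched in capitals. The windows lie at chr7:142899996-142900245 for Th, chr6:97060412-97060661 for Tafa4 and chr3:67515524-67515773 for Rarres1, all on the minus strand. The genes themselves span chr7:142892779-142899995, chr6:96831206-97060411 and chr3:67478886-67515523 in the same order, and P2ry1 spans chr3:61002785-61008982 on the plus strand.
Th: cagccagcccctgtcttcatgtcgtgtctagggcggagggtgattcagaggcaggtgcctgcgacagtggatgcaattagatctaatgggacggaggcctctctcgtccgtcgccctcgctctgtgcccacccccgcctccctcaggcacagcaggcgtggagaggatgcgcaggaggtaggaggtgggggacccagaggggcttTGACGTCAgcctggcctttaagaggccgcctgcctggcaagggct
Tafa4: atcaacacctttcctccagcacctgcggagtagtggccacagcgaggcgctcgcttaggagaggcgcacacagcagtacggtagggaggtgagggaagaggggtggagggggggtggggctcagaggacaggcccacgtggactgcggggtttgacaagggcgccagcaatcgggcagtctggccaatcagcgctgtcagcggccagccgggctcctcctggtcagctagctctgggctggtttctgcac
Rarres1: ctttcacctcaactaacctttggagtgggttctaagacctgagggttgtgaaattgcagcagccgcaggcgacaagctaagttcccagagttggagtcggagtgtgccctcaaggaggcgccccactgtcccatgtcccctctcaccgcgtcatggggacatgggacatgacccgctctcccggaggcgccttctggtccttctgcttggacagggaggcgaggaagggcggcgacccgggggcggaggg
The motifs searched on both strands were TGACGTCA, the cAMP response element, which reads the same on both strands; TGTGGT and TGCGGT, both forms of the core site of RUNX factors; and AGGTCA, the half-site of nuclear receptors such as those for retinoic acid. The capitals in the Th window mark the only match in the 3 sequences, a cAMP response element from base -45 to base -38 counted from the start site, a well-known element of this promoter. Of the 32851 RefSeq windows of the same length, 1.55% hold that element, 14% hold TGTGGT, 5.10% hold TGCGGT and 14% hold AGGTCA. The window of P2ry1 held none of the 4 motifs. The windows of Th, Tafa4 and Rarres1 had a GC content of 64.4%, 65.2% and 62.4%, where the median of all windows was 52.4%.

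Per length, Th was the most abundant member in each of the 4 samples, followed in every sample by Rarres1, Tafa4, P2ry1 and Zfp521. Averaged over the 4 samples the levels were 33.6, 23.2, 16.3, 9.70 and 4.36 FPKM, above 80.9%, 74.2%, 65.9%, 51.7% and 30.5% of the genes in the matrix. The ranges of Th and Rarres1 overlapped over the samples, as did those of Rarres1 and Tafa4, although within each of the 4 libraries Th was above Rarres1 and Rarres1 above Tafa4. The ranges of Tafa4 and P2ry1 did not overlap, nor did those of P2ry1 and Zfp521. The Th to Rarres1 ratio was 1.22, 1.18 and 1.11 in wild type 1, wild type 2 and mutant 1 and 2.12 in mutant 2. The 5 members summed to 63.6, 97.3, 72.1 and 115 FPKM in wild type 1, wild type 2, mutant 1 and mutant 2. Th made up 32.7%, 34.5%, 31.2% and 49.9% of that sum in the same order. Mutant 2 therefore held the largest sum and the largest share of Th.

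No difference between mutant and wild type passed the test over all genes for any of the 5 members. With limma on log2(FPKM + 1), 0 of 5 members passed an adjusted p of 0.05, where 0% of the 14040 genes tested passed, and the adjusted p of each member was 0.994. At an unadjusted p under 0.05 there were 0 of the 5 members and 4.36% of all genes. The members' log2 differences, mutant minus wild type, ran from -0.30 to 0.44 with a median of 0.08, and the median over all genes tested was -0.00476. All 5 passed the minimum of 1 FPKM for the test. In the authors' deposited table of 150 genes that differed between the groups, 0 of the 5 members were listed. The smallest numeric log2 change in that table is 1.009 in size, beyond that of each member, so no change as small as the members' is listed there, and their absence says nothing of the test. The smallest p of an exact permutation test with this design is 0.33, so none was run on the members. The p-values set each difference between the groups against the spread within them, moderated by that of other genes. The labels do not state that the samples came from separate animals, so that spread may be technical. A p that misses the threshold does not show that the levels were equal.

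The enzyme gene Th had the widest spread of the 5. It stood at 20.8 and 33.5 FPKM in the wild types against 22.5 and 57.5 FPKM in the mutants. Mutant 2 was the highest sample and mutant 1 lay between both wild types, so the groups overlapped. The wild type mean was 27.1 ± 9.02 FPKM and the mutant mean 40.0 ± 24.8 FPKM (SD, n = 2 each), 1.47-fold higher in the mutants. The difference on the log2 scale was 0.44 (SE 0.47), and its 95% interval ran from -0.74 to 1.61. That interval holds a rise of more than 2-fold on the log2(FPKM + 1) scale and leaves out a fall of that size. Left out in turn, mutant 2 turned the difference to -0.22 and mutant 1 raised it to 1.09, so its direction rested on mutant 2. The spread of Th within the groups, a pooled standard deviation of 0.74 on the log2 scale, was larger than that of 98.2% of the genes tested.

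The secreted protein gene Tafa4 stood at 13.2 and 17.3 FPKM in the wild types against 15.5 and 19.0 FPKM in the mutants. Mutant 2 lay above both wild types and mutant 1 between them, so the groups overlapped. The means were 15.3 ± 2.94 and 17.3 ± 2.46 FPKM (SD, n = 2 each), 1.13-fold higher in the mutants. Its log2 difference was 0.17 with a 95% interval of -0.32 to 0.66, which leaves out a 2-fold change in either direction. Without wild type 1 the difference was -0.01 and without wild type 2 it was 0.36. From the lowest to the highest sample, Tafa4 spanned 1.44-fold.

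The receptor gene P2ry1 stood at 7.73 and 13.1 FPKM in the wild types against 9.75 and 8.24 FPKM in the mutants. Both mutants lay between the wild types. The means were 10.4 ± 3.77 and 9.0 ± 1.07 FPKM (SD, n = 2 each), with a log2 difference of -0.15 and a 95% interval of -0.80 to 0.49. Wild type 2 set the direction, since without it the difference was 0.19, and without wild type 1 it was -0.50. In GENCODE M21, the antisense gene Gm37035 shares 992 exon bases with P2ry1 on the other strand. The sources used here do not give the strandedness of the libraries, so fragments of the 2 genes cannot be told apart at those bases. The exons of the other 4 members overlapped no other gene's exons in that annotation.

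The transcription factor gene Zfp521 was the only member whose groups did not overlap. It stood at 4.82 and 5.0 FPKM in the wild types against 4.13 and 3.48 FPKM in the mutants. Both mutants were below both wild types, and the wild types differed from each other by 1.04-fold. The means were 4.91 ± 0.121 and 3.81 ± 0.457 FPKM (SD, n = 2 each), the mutant level being 0.775 of the wild type level. The log2 difference was -0.30 (SE 0.15), and its 95% interval ran from -0.68 to 0.08. It was between -0.40 and -0.20 with each sample left out. Thus 1 of the 5 members was lower and 0 were higher without overlap, where 19.6% of all genes tested were lower and 12.5% were higher in the same sense. A share of 1 in 5 is near that background. After rescaling by median ratios, 2232 genes were lower and 2205 higher, and after quantile normalization 2167 and 2341.

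The membrane protein gene Rarres1 stood at 17.1 and 28.3 FPKM in the wild types against 20.2 and 27.1 FPKM in the mutants. Both mutants lay between the wild types. The means were 22.7 ± 7.98 and 23.6 ± 4.89 FPKM (SD, n = 2 each), 1.04-fold apart. Its log2 difference of 0.08 had a 95% interval of -0.62 to 0.79, and with each sample left out it ran from -0.27 without wild type 1 to 0.43 without wild type 2. The wild type samples differed from each other by 1.66-fold, more than the group means did. Rarres1 varied more within the groups than 91.4% of the genes tested.

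**Figure D1:**
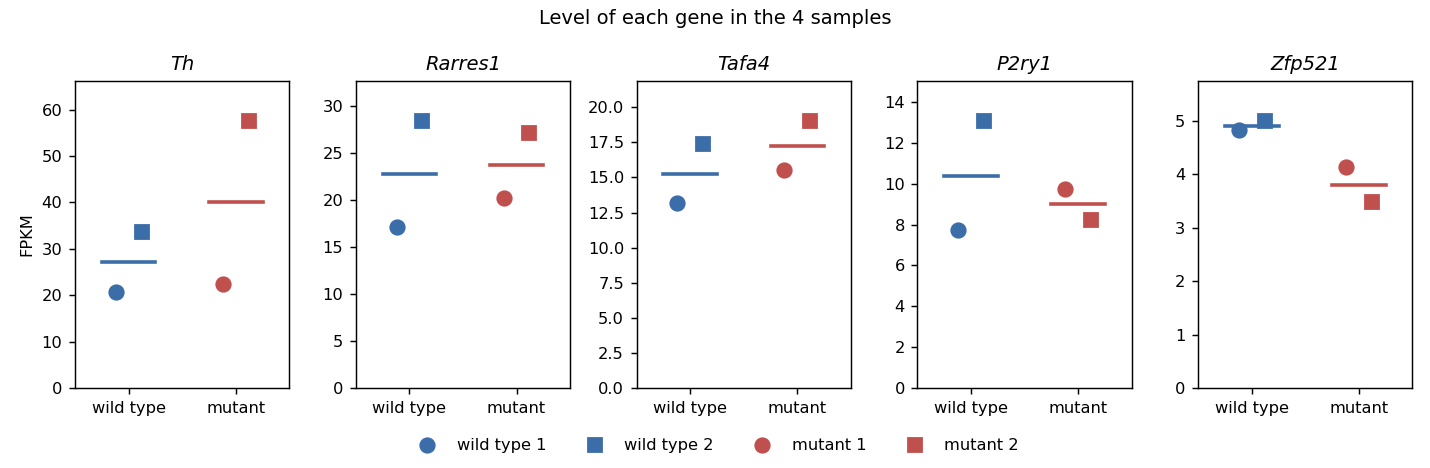
FPKM of the 5 touch neuron genes in each sample (y axis, linear from 0, a separate scale per gene); points are samples, circles and squares the samples numbered 1 and 2, and horizontal lines the means of the 2 samples of a group. Mutant 2 is the highest sample for Th at 57.5 FPKM, and both mutants lie below both wild types for Zfp521 alone.

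**Figure D2:**
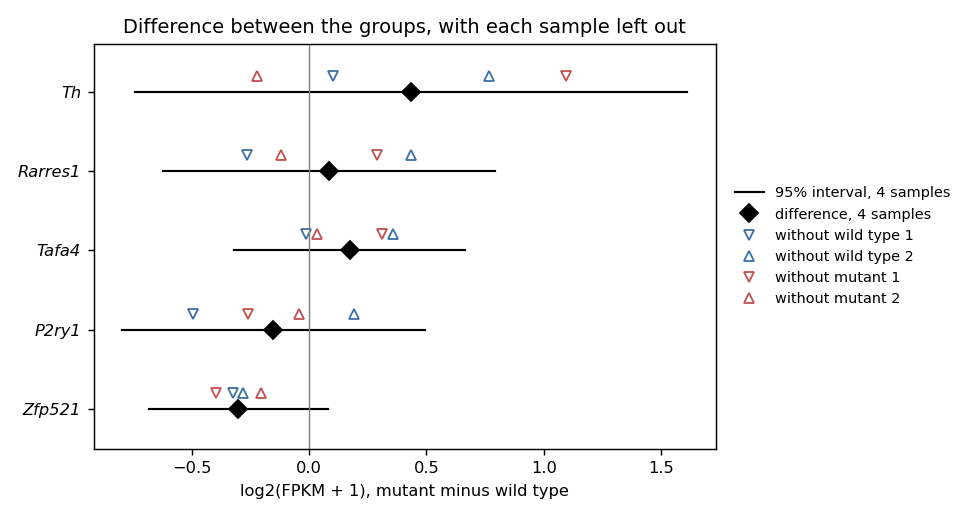
Log2(FPKM + 1) difference, mutant minus wild type (x axis), for each gene: diamonds use all 4 samples, lines are limma's 95% intervals and triangles the differences with 1 sample left out. Each interval holds 0, and the triangles of Zfp521 lie between -0.40 and -0.20 while those of the other 4 genes fall on both sides of 0.

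Within each group the second sample was the higher one for 3 of the members. Th, Tafa4 and Rarres1 were each higher in wild type 2 than in wild type 1 and higher in mutant 2 than in mutant 1. The ratio of the second sample to the first was 1.61 in wild type and 2.56 in the mutants for Th, 1.66 and 1.34 for Rarres1 and 1.32 and 1.22 for Tafa4. P2ry1 (1.69 and 0.845) and Zfp521 (1.04 and 0.844) were higher in wild type 2 than wild type 1 and lower in mutant 2 than mutant 1. Of the 14040 genes tested, 40.3% were higher in the second sample of both groups. A gain in both groups at least as large as the smallest of these 3 genes in each group was seen in 7.59%.

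Pan-neuronal genes gave the same order of samples as Th and Tafa4. Fewer sensory neurons and less RNA per neuron cannot be told apart in bulk ganglia. The mean log2(FPKM + 1) of the 14 pan-neuronal genes was 6.17 and 6.67 for the wild types and 6.31 and 6.95 for the mutants. Taken relative to that mean, Rarres1 spanned 0.34 log2 units over the samples where its own log2 level spanned 0.70, Tafa4 spanned 0.36 where it had spanned 0.50, and Th 0.68 where it had spanned 1.43. P2ry1 and Zfp521 went the other way, from 0.69 to 0.88 and from 0.42 to 1.16. Relative to the neuronal mean, the difference between mutant and wild type was 0.22 for Th, -0.04 for Tafa4, -0.13 for Rarres1, -0.36 for P2ry1 and -0.51 for Zfp521, and the groups overlapped for each of the 5. With that centring the median of all genes tested moved to -0.22, so against it only P2ry1 and Zfp521 were lower.

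Markers of other cells also differed between the libraries. The 14 skeletal muscle genes summed to 403 and 2936 FPKM in the wild types against 188 and 5726 FPKM in the mutants, and the 12 adipocyte genes to 585, 1023, 334 and 3006 FPKM in that order. Both lists were thus high in the samples where Th, Tafa4 and Rarres1 were high, and the part of these tissues in the members' levels was not tested. The 15 fibroblast and meninges genes summed to 6811, 5314, 6532 and 3504 FPKM, lowest in mutant 2, where Zfp521 was lowest too. Dcn alone was at 3462, 3347, 3710 and 1901 FPKM in that order, a large part of the sum, which thus hides unlike genes. Of the 15, 7 were lower and 0 higher without overlap, with a median log2 difference of -0.58, beside 19.6% lower and 12.5% higher among all genes tested. Aldh1a2, 1 of those 7, was at 99.5 and 75.7 FPKM in the wild types against 27.5 and 18.8 FPKM in the mutants. The collagen genes Col1a1 (log2 difference 0.19) and Col3a1 (0.02) overlapped. These 3 genes were named after their values were seen. The part of fibroblasts and meninges in the level of Zfp521 was not tested. No gene of the muscle, adipocyte or fibroblast list was at 0 in any sample. Schwann cell genes stood apart in mutant 2 alone, at 21756 FPKM against 8531 to 10599 FPKM in the other samples.

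Th is also made by sympathetic neurons. Of 12 sympathetic markers, 5 had values here (Slc18a2, Gata2, Npy, Chrna3 and Chrnb4), and the others, Dbh and Slc6a2 among them, were not analysed here. The 5 summed to 10.4 and 8.13 FPKM in the wild types against 10.3 and 5.99 FPKM in the mutants. The sum was lowest in mutant 2, the sample with the highest Th. The part of sympathetic neurons in the level of Th was not tested. Gata2, the most abundant of them, was at 3.13, 3.05, 3.26 and 1.89 FPKM.

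**Figure D3:**
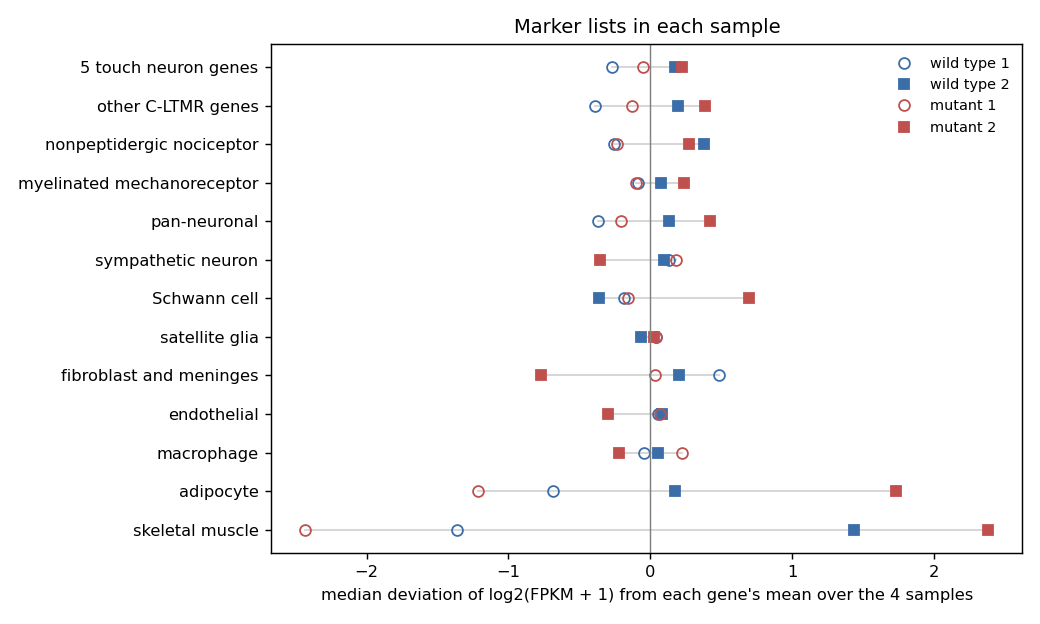
Median deviation of log2(FPKM + 1) from each gene's mean over the 4 samples (x axis) for the 5 touch neuron genes and 12 marker lists, with 1 point per sample. The medians of the touch neuron and pan-neuronal genes are above 0 in wild type 2 and mutant 2. So are those of the other C-LTMR, nonpeptidergic nociceptor, myelinated mechanoreceptor, adipocyte and skeletal muscle lists. The skeletal muscle medians range from -2.43 in mutant 1 to 2.38 in mutant 2.

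Further genes known from C-LTMRs were listed without the members, from the growth factor receptors Ret and Gfra2 to the touch channel Piezo2, the T-type calcium channel Cacna1h, the sodium channels Scn10a and Scn11a and the transcription factors Tlx3, Runx1 and Pou4f2. Of 12 genes, 10 had values and 0 of 10 passed the test. Their median log2 difference was 0.25, beside a median of 0.26 for the pan-neuronal genes. Of the 10, 9 were above 0 and 1 below. Among the 14 pan-neuronal genes 12 were above 0, as were 49.1% of all genes tested. Tlx3 was at 20.9 and 34.7 FPKM in the wild types against 31.4 and 53.7 FPKM in the mutants (log2 difference 0.59 ± 0.34, SE), with overlapping groups. Ret was at 24.9 and 37.3 against 26.1 and 36.2 FPKM in the same order (0.01). Cacna1h, at 1.83 and 1.85 against 2.45 and 2.42 FPKM (0.27), was the 1 gene of the 10 with both mutants above both wild types. For each list that follows, counts without overlap stand beside 12.5% higher and 19.6% lower among all genes tested. The vesicular glutamate transporter gene Slc17a8 and the calcium channel gene Cacna1i were not analysed here.

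Nonpeptidergic nociceptors and myelinated touch neurons are other sensory neurons of the ganglion. Of 12 nonpeptidergic nociceptor genes, 0 passed, Lpar5 and Cd55 (named after their values were seen) were lower without overlap, and the median log2 difference was -0.08. Of 15 myelinated mechanoreceptor and proprioceptor genes, 0 passed, Ntrk2 and Calb1 were higher and Ntrk3, Maf and Ptgfr lower without overlap (likewise named afterwards), and the median was 0.14. The medians of both lists and the 0.08 of the touch neuron members were not tested against each other. The most abundant marker of each type was, like Th, higher in sample 2 of each group, as were 40.3% of all genes tested. In wild type 1, wild type 2, mutant 1 and mutant 2, Scg3 was at 86.8, 179, 88.8 and 162 FPKM. Pvalb was at 226, 401, 220 and 624 FPKM in that order. Not every gene of its list followed: Ntrk2, Ntrk3 and Ptgfr were lower in sample 2 of both groups. Pvalb had the same order of samples as the summed skeletal muscle genes, and the part of muscle in its level was not tested.

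The genes listed around Th make, store or break down catecholamines, or make and recycle tetrahydrobiopterin. Tetrahydrobiopterin is the cofactor of tyrosine hydroxylase. Of 16 genes, 10 had values, 0 passed, and the median log2 difference was -0.05. In 3 of the 10 both mutants were below both wild types, as in 19.6% of all genes tested, namely Gch1, which starts cofactor synthesis (3.39 and 3.75 FPKM in the wild types against 3.19 and 2.66 FPKM in the mutants), Pts, the next enzyme (64.0 and 65.8 against 59.0 and 52.5 FPKM), and Maob, a monoamine oxidase named after its values were seen (4.44 and 4.37 against 3.56 and 4.03 FPKM). Qdpr, which recycles the cofactor, was at 103 and 116 FPKM in the wild types against 95.9 and 119 FPKM in the mutants. Pcbd2, another recycling gene, had a log2 difference of 0.15. The aromatic amino acid decarboxylase gene Ddc and the other transporter and enzyme genes of the list (Dbh, Pnmt, Slc18a1, Slc6a2 and Slc6a3) were not analysed here.

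Of 4 other TAFA genes and 2 formyl peptide receptor genes, 0 of 6 passed, and the median log2 difference was 0.11. The receptor encoded by Fpr1 has been reported to bind TAFA4. Tafa1 (Fam19a1 in the matrix) was at 4.09 and 4.38 FPKM in the wild types against 5.46 and 6.22 FPKM in the mutants (log2 difference 0.39 ± 0.15, SE). Tafa3 (Fam19a3), named after its values were seen, was higher without overlap too, at 0.569 and 0.682 against 0.995 and 1.23 FPKM. It reached the minimum of 1 FPKM in the mutants only, so it entered the test through the group in which it was high. Tafa5 (Fam19a5) had a log2 difference of 0.01, Tafa2 (Fam19a2) of 0.07 and Fpr2 of 0.15. Fpr1, named after its values were seen, had a log2 difference of 0.03 with overlapping groups. At 15.3 FPKM in wild type, Tafa4 had the highest level of the family there, ahead of Tafa5.

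Of 5 other P2Y receptor genes with values, 0 passed, and the median log2 difference was -0.03. P2ry2 was higher without overlap (4.90 and 4.69 FPKM in the wild types against 5.10 and 8.39 FPKM in the mutants) and P2ry13 lower (2.31 and 2.38 against 2.17 and 1.18 FPKM). P2ry14 and P2ry6, the most abundant of these, had log2 differences of -0.17 and 0.06. Among 12 genes with values for the release and breakdown of extracellular nucleotides, 11 were tested, 0 passed and the median was -0.08. Entpd2, which hydrolyses ATP to ADP, the ligand of P2Y1, was at 40.9 and 38.0 FPKM in the wild types against 61.6 and 47.9 FPKM in the mutants (0.45 ± 0.18, SE), higher without overlap. Nt5e, which makes adenosine from AMP, was at 28.9 and 30.4 against 23.5 and 14.4 FPKM (-0.66 ± 0.25, SE), lower without overlap, as was Enpp3, named after its values were seen. Acpp, an ectonucleotidase of nonpeptidergic neurons, had a log2 difference of -0.40 with overlapping groups. Downstream of the receptor, 8 of 9 Gq pathway genes were tested and 0 passed (median -0.07). The inositol trisphosphate receptor genes Itpr1 (5.55 and 4.96 against 3.52 and 2.86 FPKM, log2 difference -0.58) and Itpr2 (-0.27) and the G protein gene Gnaq (-0.13) were lower without overlap, and the phospholipase gene Plcb3 overlapped (-0.06).

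The paralogue of Zfp521, Zfp423, was at 4.99 and 4.67 FPKM in the wild types against 2.83 and 3.20 FPKM in the mutants, without overlap, a log2 difference of -0.54 ± 0.15, SE (limma adjusted p = 0.823). Of the 18 genes for the paralogue, the EBF factors that these proteins bind and the subunits of the NuRD chromatin complex, 0 passed, 6 were lower and 3 higher without overlap (19.6% and 12.5% of all genes tested), and the median was -0.09. Ebf4 was higher, at 4.03 and 4.27 against 6.07 and 5.77 FPKM (0.43 ± 0.14, SE), and so were Mta1 (0.06) and Gatad2a (0.23), named after their values were seen. The histone-binding subunit genes Rbbp7 and Rbbp4, the most abundant of the list, had log2 differences of -0.30 and -0.14.

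For Rarres1, the latexin gene Lxn was at 187 and 263 FPKM in the wild types against 168 and 263 FPKM in the mutants, the same order of high and low libraries as Rarres1 within each group. Rarres2 was at 156 and 203 against 181 and 211 FPKM. Of the 6 genes with values for latexin, Rarres2 and the carboxypeptidases that trim tubulin tails, 0 passed, and the median log2 difference was 0.04. Agbl4, named after its values were seen, was higher without overlap (0.37) and entered the test through the mutants only, its wild type mean being under 1 FPKM, and Agbl5 had a log2 difference of -0.14. Among 12 retinoic acid receptor and response genes, 0 passed and the median was -0.18. Crabp2 (78.3 and 46.4 against 32.6 and 16.5 FPKM) and Stra6 (81.2 and 56.3 against 49.7 and 31.2 FPKM) were lower in both mutants without overlap. Crabp2 binds retinoic acid inside the cell and Stra6 takes up retinol, and Dhrs3, which reduces retinal, had a log2 difference of -0.29. Rarres1 had its highest value in wild type 2 and a log2 difference of 0.08, beside -1.34 for Crabp2 and -0.76 for Stra6. Crabp2 is listed as lower in the authors' deposited table. It is also 1 of the 15 fibroblast and meninges genes, whose sum was lowest in mutant 2, and the part of those cells in its level was not tested.

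**Figure D4:**
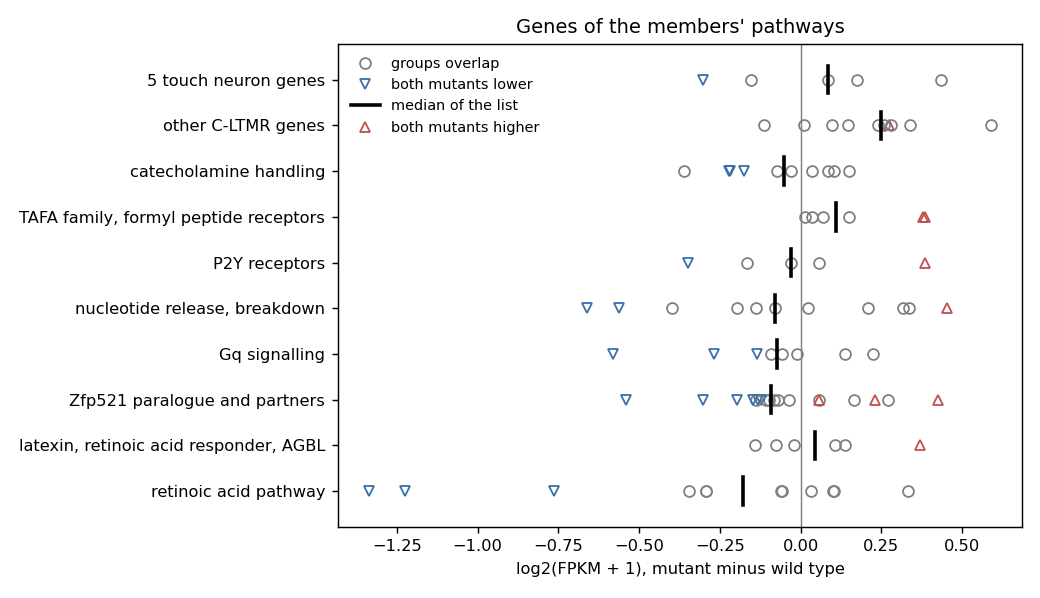
Log2(FPKM + 1) difference, mutant minus wild type (x axis), of each tested gene in the members' pathways; marks show whether both mutants were above, below or overlapping both wild types, and black bars are list medians. The medians lie between -0.18 for the retinoic acid pathway and 0.25 for the other C-LTMR genes, and no gene shown passed the test over all genes.

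Genes with the most similar profile were found by the distance between log2(FPKM + 1) profiles over the 4 samples, each centred on its own mean. For Th these were Ccdc124 (distance 0.12), Asb14 (0.17) and Nefl (0.18). Nefl, the neurofilament light chain gene, was at 402 and 740 FPKM in the wild types against 497 and 1238 FPKM in the mutants. Asb14 was low, at 0.130 and 0.819 against 0.0698 and 2.03 FPKM in the same order. It entered the test through the mutants only, being under 1 FPKM in both wild types. For Rarres1 the nearest genes were Ass1 (0.05), Lpar3 (0.06) and Gps2 (0.07), and Lpar3 is also 1 of the nonpeptidergic markers listed. For Tafa4 they were Bend6 (0.01), Stau2 (0.02) and Fxyd1 (0.03), for P2ry1 Tex9, Pbdc1 and Gbp3 (0.05 each), and for Zfp521 Chic1 (0.02), Siae (0.02) and Braf (0.03). A profile of 4 points has many neighbours. Within a distance of 0.2 there were 8 genes for Th, 53 for P2ry1, 251 for Rarres1, 1197 for Zfp521 and 1420 for Tafa4.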

How the data were processed

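RNA of dorsal root ganglia from 2 wild type and 2 mutant samples was sequenced, and each sample took its group and number from its title. The authors deposited FPKM values of 14405 genes in the 4 samples, and a table of 150 genes with group FPKM, log2 fold changes, p-values and q-values, in Cuffdiff's column format per the file headers. Per the submitters' processing notes, the tools were TopHat2 2.1.2, Cufflinks 2.2.1 and CASAVA, with build mm10; the sources used here do not give their roles, settings, library scaling or strandedness. FPKM gives no read counts, so no counting interval is given. The lowest value that a gene of the matrix reached in its highest sample was 1.00 FPKM.

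Groups were compared with limma 3.58.1 (R 4.3.3) on log2(FPKM + 1), a scale that understates the change of low genes, with a variance trend. The test covered the 14040 genes whose mean reached 1 FPKM in a group, was adjusted by the Benjamini-Hochberg method at 0.05, had 2 residual degrees of freedom and borrowed 3.44. It was tested on simulated data. The members and lists were chosen with earlier results of these data known. Named genes are the 2 most abundant of each pathway list and the 2 with the largest moderated statistic, the most abundant marker of each cell type, Prdm12 as a check of the labels, and the 3 nearest profiles of each member. Others are said to be named after their values were seen. Some listed genes are not reported here by name. Promoters come from RefSeq on GRCm38.p6, the same assembly as mm10, and 4 members had windows used here. The 12 alternatives were: 2 filters, another pseudocount, 3 scalings, another prior, a replicate block and each sample left out.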

Additional observations from a re-analysis of the deposited data

How the results depend on the processing

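The count of members past the threshold was 0 of those tested under each of the 12 alternatives; Zfp521 was not tested with a minimum of 5 FPKM. Of 59 member differences under them, 7 changed sign. With each sample centred on the pan-neuronal list, Tafa4 was at -0.038 and Rarres1 at -0.13. With 1 sample left out, Th ran from -0.22 to 1.09, Tafa4 from -0.012 to 0.36, P2ry1 from -0.50 to 0.19 and Rarres1 from -0.27 to 0.43. The lone sample of a group is then assumed to vary like the other group. The median of the members ran from -0.27 to 0.36 over the alternatives. Over all genes, 26 passed with the pan-neuronal centring, which left 319 genes higher and 1195 lower without overlap, and 0 to 5 passed with 1 sample left out, the 5 without wild type 1. The cause was not tested.

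With a replicate block 61 genes passed and 0 members did, and the smallest adjusted p of a member was 0.486, that of Th (limma). The labels give no shared litter or day, so the samples share only a number. The differences between the second and first samples of both groups correlated over genes at 0.481, and genes are not independent replicates. Beside the unknown depth, 2 samples a group limit each value.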
